A study of Mus musculus with 6 samples.

Results

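Insulin signalling was described here through 8 genes taken by symbol from the 12389 genes of the deposited tables: the insulin receptor Insr, its binding adaptor Grb14, the docking proteins Irs1 and Irs2, the regulatory subunit Pik3r1 of phosphoinositide 3-kinase, the kinases Akt1 and Akt2, and the transcription factor Foxo1. All 8 genes had values in every library and passed the filter on low values. Messenger RNA came from primary vascular smooth muscle cells of mouse thoracic aorta, grown out of explants in serum-containing medium and collected without treatment at passage 6 or below. There were 3 libraries from wild-type mice (WT) and 3 from mice lacking LRRC8A in smooth muscle (KO), LRRC8A being the obligatory part of a chloride channel that opens when cells swell. The submitters call the 3 libraries of each genotype independent biological replicates. No source used here names the driver of the deletion or the strain, sex and age of the mice. Groups follow the sample titles, because a separate label gives the genotype of all 6 as wild type.

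Insulin binding turns on the tyrosine kinase of its receptor, which phosphorylates IRS1 and IRS2. These dock phosphoinositide 3-kinase, whose lipid product brings AKT to the membrane, and active AKT phosphorylates FOXO1 and so keeps it out of the nucleus. GRB14 and its relative GRB10 bind the activated receptor and inhibit it. In arterial smooth muscle the pathway is known for its part in glucose uptake, growth and survival. LRRC8A has been described in fat and muscle cells as binding the adaptor GRB2 and acting on insulin signalling through AKT, and the comparison asks what the transcripts of this pathway look like in smooth muscle that lacks it.

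Estimated depth ran from 31.0 to 47.9 M reads per library. Values are scaled reads, meaning reads put on a common depth, listed here in the order of replicates 1, 2 and 3, and differences are KO minus WT on the log2(value + 2) scale from limma. Lrrc8a, the targeted gene, had 2578, 2194 and 1221 scaled reads in the WT libraries and 868, 672 and 506 in the KO libraries, so its transcript was lower but still present. Of 8 smooth muscle markers 6 had values, summing to between 16520 and 205102 scaled reads in WT and between 31498 and 106017 in KO, with Acta2 and Tagln highest and with replicate 3 the highest of each group. The sums rest on Acta2 and Tagln, whose log2 differences were 0.14 (SE 1.02) and 0.56 (SE 1.23), while the other 4 markers were below 0 and the median of the 6 was -0.81. Myosin heavy chain Myh11, a marker of contractile cells, stood at 90.1, 152 and 1656 scaled reads in the WT libraries and 41.7, 20.8 and 96.8 in the KO libraries, a difference of -2.63 (SE 1.16). Lmod1 had -2.46 (SE 1.37), Cnn1 -1.36 (SE 1.80) and Smtn -0.26 (SE 0.19), and Myh11, Lmod1 and Smtn were lower in KO in all 3 pairs. None of the 6 passed an adjusted p of 0.05 in limma, and the part of these markers in the results below was not tested. The 6 fibroblast markers, led by Dcn and Col14a1, summed to 18120 to 65470 in WT and 21035 to 58537 in KO. The 3 leukocyte markers with values, led by Csf1r and Lyz2, summed to 1233 to 1594 in WT and 392 to 1197 in KO. The 5 epithelial and mesothelial markers, led by Upk3b and Msln, summed to 5562 to 9936 in WT and 1098 to 6769 in KO. Of these 5, 2 (Krt19 and Cdh1) had a difference above 0 and 3 were below. Krt18 had 269, 146 and 61.7 scaled reads in the WT libraries and 2.14, 188 and 0 in the KO libraries. Cdh1 had 135, 230 and 0.79 in WT and 778, 1211 and 0 in KO. Krt19 was higher in KO in all 3 pairs, at 1.16 (SE 0.84). The 2 adipocyte markers, Fabp4 and Pparg, summed to 142 to 1622 and 274 to 434, and Kdr, the 1 endothelial marker with a value, ran from 42.7 to 433 and from 21.3 to 423.

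The upstream sequences of the docking protein genes and of Grb14 are shown because these are the members with the largest differences between groups (Grb14, Irs1) or the widest spread within one (Irs2). RefSeq start sites on GRCm38.p6 were matched for 7 of the 8 genes. Each sequence runs 5′ to 3′ on the gene's strand from 250 to 21 bases before the start. The RefSeq start matched for Grb14 lies inside the gene's annotated span (chromosome 2, 64912476 to 65024987, minus strand). Its window is therefore within the gene and not upstream of the whole span. Capitals mark matches on either strand to the core of the insulin response element (TTGTTTTG), the E-box CACGTG and the GC box GGGCGG, and the FOXO element GTAAACA was searched as well.
Irs1, chr1:82291460-82291689, minus strand: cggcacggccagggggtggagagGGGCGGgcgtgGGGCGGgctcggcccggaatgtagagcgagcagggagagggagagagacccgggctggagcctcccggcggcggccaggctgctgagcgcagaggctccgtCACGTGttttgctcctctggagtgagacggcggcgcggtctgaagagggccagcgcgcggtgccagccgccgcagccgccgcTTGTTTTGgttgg
Irs2, chr8:11008950-11009179, minus strand: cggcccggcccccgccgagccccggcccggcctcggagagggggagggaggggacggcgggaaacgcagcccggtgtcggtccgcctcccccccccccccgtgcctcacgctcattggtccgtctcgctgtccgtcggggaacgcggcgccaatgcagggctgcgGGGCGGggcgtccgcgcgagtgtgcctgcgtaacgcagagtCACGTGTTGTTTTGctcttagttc
Grb14, chr2:65022787-65023016, minus strand: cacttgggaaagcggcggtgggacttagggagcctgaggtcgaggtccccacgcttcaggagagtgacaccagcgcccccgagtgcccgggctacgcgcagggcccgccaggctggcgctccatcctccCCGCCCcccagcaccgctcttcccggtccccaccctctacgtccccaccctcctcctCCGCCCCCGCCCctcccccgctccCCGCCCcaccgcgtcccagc

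Both docking protein genes held 1 match to the insulin response core, beginning 33 bases before the start in Irs1 and 38 in Irs2, and 1 E-box, beginning 115 and 44 bases before it. In Irs2 the E-box and the core adjoin without a base between them and do not overlap. Among 32851 RefSeq windows of the same length, 2.13% held the core, 5.35% the E-box, 29.8% the GC box and 2.91% the FOXO element. Grb14 held 4 GC boxes and neither of the other marked motifs. The FOXO element was matched in 1 window of the 7 genes, at 1 of the start sites of Akt1. These matches describe letters only.

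Grb14 was the member with the largest difference, about double in KO, while the receptor it binds had similar mean levels in both groups. Insr (ENSMUSG00000005534; GRCm38, as for all positions here, chromosome 8, 3122061 to 3279617, minus strand) stood at 2384, 2143 and 1880 scaled reads in the WT libraries and 2070, 2573 and 1576 in the KO libraries. The groups overlapped, and replicate 3 was the lowest of each. Insr was 2136 ± 252 for WT and 2073 ± 499 for KO (SD, n = 3 each), a limma log2 difference of -0.07 (SE 0.23) with a 95% interval from -0.62 to 0.49. The sign of this difference turned without WT replicate 1 (0.018) or without KO replicate 3 (0.12).

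Grb14 (ENSMUSG00000026888; chromosome 2, 64912476 to 65024987, minus strand) stood at 499, 566 and 623 scaled reads in the WT libraries. In the KO libraries it had 1215, 1223 and 1039. Every KO library lay above every WT library, and both groups were tight, at 563 ± 62.2 for WT and 1159 ± 104 for KO (SD, n = 3 each). Higher non-overlapping values in KO were found for 3.91% of all genes tested. The limma log2 difference was 1.04 (SE 0.20), with a 95% interval from 0.57 to 1.51. Its unadjusted p in limma, 0.0012, ranked 13 of 12363 genes, but its adjusted p was 0.996 and it did not pass.

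Grb14 passed in the authors' deposited table, where its log2 ratio was 1.04 and its false discovery rate (FDR) 0.00787. At that threshold 0.525% of genes passed in the authors' deposited table and 0.113% passed with a higher value in KO, and Grb14 was the 1 of the 8 genes that did. With library quality weights in limma, which ran from 0.361 for KO replicate 3 to 7.99 for WT replicate 2, its log2 difference of 1.08 passed at an adjusted p of 0.045, as did 0.243% of genes, and with the weights and the replicate block together the adjusted p was 0.108. Over all alternatives the adjusted p of Grb14 in limma ran from 0.045 to 1, while its log2 difference without each library in turn stayed between 0.96 and 1.12. The leukocyte marker sums were lower in each KO library than in any WT library, though narrowly (at most 1197 against at least 1233). Of the single markers, Lyz2 was lower without overlap, as were 4.51% of all genes. Cd68 and Csf1r overlapped, and Csf1r was highest in KO replicate 3 (899). The part of these markers in the difference of Grb14 was not tested. In these bulk libraries more RNA per cell and more cells expressing a gene cannot be told apart.

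Per kilobase of exon, Grb14 stood at 0.40, 0.51 and 0.63 of Insr in the WT libraries and at 1.12, 0.91 and 1.26 in the KO libraries. The ratio was thus below 1 in all WT libraries and near or above 1 in the KO libraries, with group values of 0.51 ± 0.12 and 1.10 ± 0.18 (SD, n = 3 each). The exact permutation p, two-sided, was 0.1, the smallest that 3 libraries against 3 allow. The related receptor adaptor Grb10, which is imprinted, did not show this pattern. It had 1452, 13178 and 69192 scaled reads in the WT libraries and 2209, 9220 and 3471 in the KO libraries, so it varied widely within WT and the groups overlapped (limma log2 difference -1.41, SE 1.37). The difference of Grb10 was -2.87 without WT replicate 1 and -0.082 without WT replicate 3, and the authors' deposited table gives a log2 ratio of -2.49 and an FDR of 0.916 for it.

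**Figure D1:**
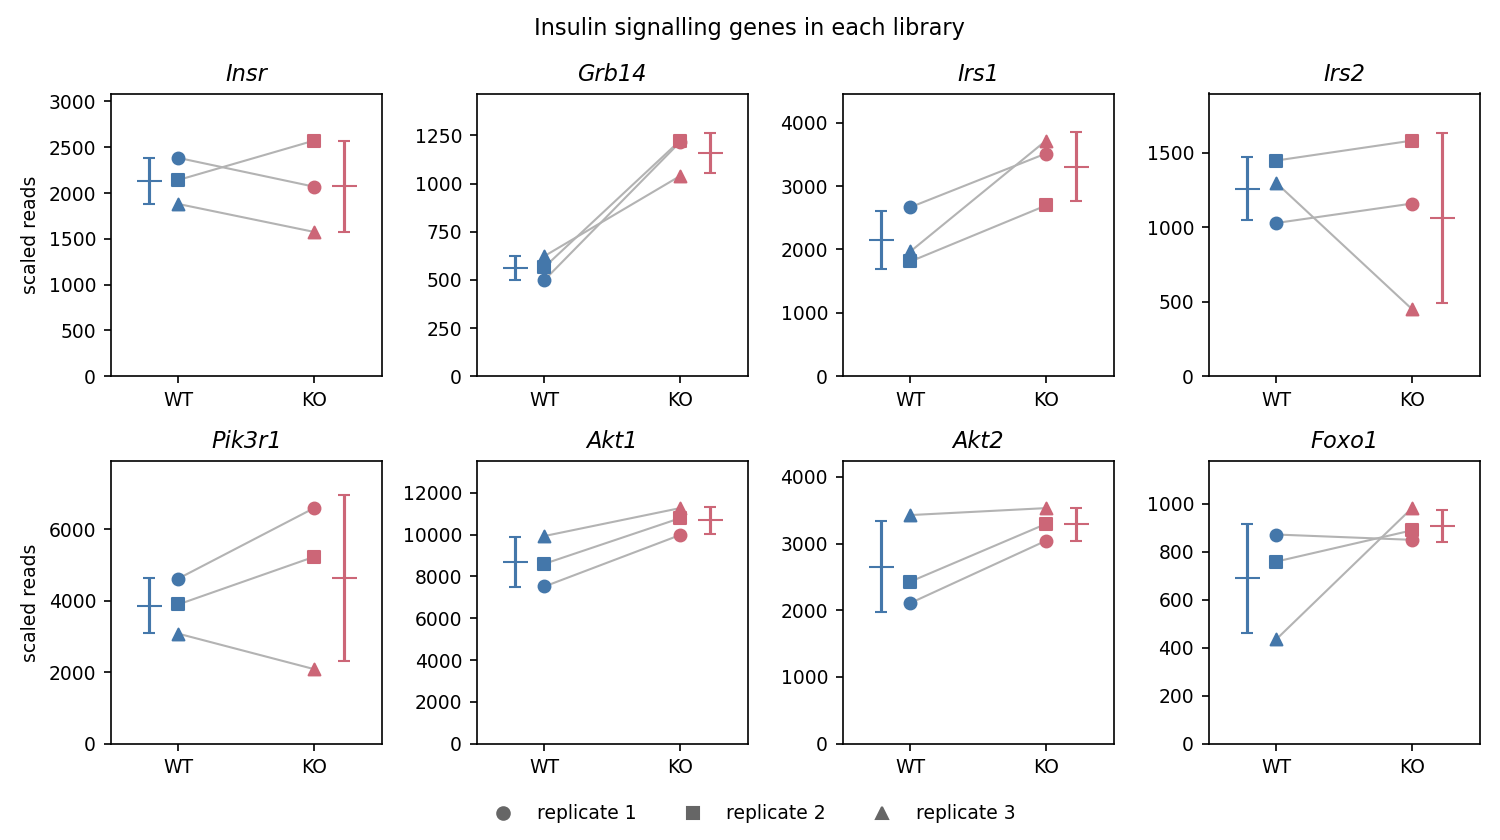
Scaled reads (y axis, linear from 0) of the 8 genes in each WT (blue) and KO (red) library, with symbols for replicate numbers, grey lines between same-numbered libraries, and the mean ± SD (n = 3) of each group beside the points. Grb14, Irs1 and Akt1 have all KO libraries above all WT libraries, whereas Irs2 and Pik3r1 are lowest in KO replicate 3.

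The docking proteins IRS1 and IRS2 carry the signal from the receptor to phosphoinositide 3-kinase, and their transcripts differed in pattern. Irs1 (ENSMUSG00000055980; chromosome 1, 82233101 to 82291416, minus strand) stood at 2666, 1810 and 1968 scaled reads in the WT libraries and 3513, 2693 and 3717 in the KO libraries. The KO libraries were all higher, though narrowly, since KO replicate 2 stood just above WT replicate 1. Irs1 was 2148 ± 456 for WT and 3308 ± 542 for KO (SD, n = 3 each), with a limma log2 difference of 0.63 (SE 0.23), a 95% interval from 0.08 to 1.17, an unadjusted p of 0.0292 and an adjusted p of 0.999. The unadjusted p of Irs1 in limma passed 0.05 again without WT replicate 1 or KO replicate 2 and was over 0.05 without WT replicate 2 (0.105), WT replicate 3 (0.0729), KO replicate 1 (0.0846) or KO replicate 3 (0.0794). In the authors' deposited table Irs1 had a log2 ratio of 0.62 and an FDR of 0.70.

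The predicted gene Gm9747 on the opposite strand shares 2822 exonic bases with Irs1, and no source used here says whether strand was used in counting. Gm9747 had 1108, 351 and 256 scaled reads in the WT libraries and 652, 422 and 466 in the KO libraries, so it was highest in a WT library and its groups overlapped. Irs2 and Foxo1 also have genes on the opposite strand, which share 162 and 674 exonic bases with them and were not analysed here.

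Irs2 (ENSMUSG00000038894; chromosome 8, 10984681 to 11008458, minus strand) stood at 1029, 1448 and 1297 scaled reads in the WT libraries and 1159, 1582 and 450 in the KO libraries. KO replicate 3 was below all other libraries, and the remaining KO libraries lay in or just above the WT range. Irs2 was 1258 ± 212 for WT and 1064 ± 572 for KO (SD, n = 3 each), and its limma log2 difference of -0.41 (SE 0.46, 95% interval -1.49 to 0.67) turned to 0.12 without KO replicate 3. Per kilobase of exon, the ratio of Irs1 to Irs2 was 1.79, 0.86 and 1.05 in the WT libraries and 2.10, 1.18 and 5.71 in the KO libraries. It was thus higher in KO than in the same-numbered WT library in each pair, although the groups overlapped (exact two-sided permutation p = 0.2).

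Pik3r1 encodes the p85 alpha regulatory subunit, which holds the catalytic subunit inactive until the complex docks on IRS proteins. Pik3r1 (ENSMUSG00000041417; chromosome 13, 101680563 to 101768217, minus strand) stood at 4624, 3900 and 3079 scaled reads in the WT libraries and 6595, 5231 and 2087 in the KO libraries. In both groups replicate 1 was highest and replicate 3 lowest, and the KO range enclosed the WT range. The group values were 3868 ± 773 and 4638 ± 2312 (SD, n = 3 each). The limma log2 difference of Pik3r1 was 0.13 (SE 0.43), with a 95% interval from -0.90 to 1.15. It was 0.62 without KO replicate 3, and its sign turned without WT replicate 3 (-0.029), KO replicate 1 (-0.21) or KO replicate 2 (-0.040).

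AKT1 and AKT2 are the main effector kinases of the pathway, and both transcripts were higher in KO in each same-numbered pair by amounts that did not pass the test. Akt1 (ENSMUSG00000001729; chromosome 12, 112653821 to 112674884, minus strand) stood at 7518, 8603 and 9932 scaled reads in the WT libraries and 9979, 10784 and 11267 in the KO libraries. The groups of Akt1 did not overlap, but WT replicate 3 and KO replicate 1 were nearly equal. Akt2 (ENSMUSG00000004056; chromosome 7, 27591552 to 27640826, plus strand) stood at 2109, 2430 and 3427 in the WT libraries and 3043, 3295 and 3532 in the KO libraries. Here WT replicate 3 lay above 2 of the KO libraries. The limma log2 differences were 0.31 for Akt1 (SE 0.20, 95% interval -0.17 to 0.78) and 0.34 for Akt2 (SE 0.23, 95% interval -0.20 to 0.88). For Akt2 the difference was 0.19 without WT replicate 1 and 0.54 without WT replicate 3.

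The balance between the 2 kinases was similar across libraries. Per kilobase of exon, Akt1 made up 86.1%, 86.0% and 83.5% of the sum of Akt1 and Akt2 in the WT libraries and 85.1%, 85.1% and 84.7% in the KO libraries. The KO shares thus lay inside the WT range, with group values of 85.2% ± 1.52 and 85.0% ± 0.20 (SD, n = 3 each). The sum itself was 2492 ± 390 scaled reads per kilobase for WT and 3067 ± 193 for KO (SD, n = 3 each). Its groups overlapped, since WT replicate 3 (2904) stood above KO replicate 1 (2862), and the exact two-sided permutation p was 0.2.

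**Figure D2:**
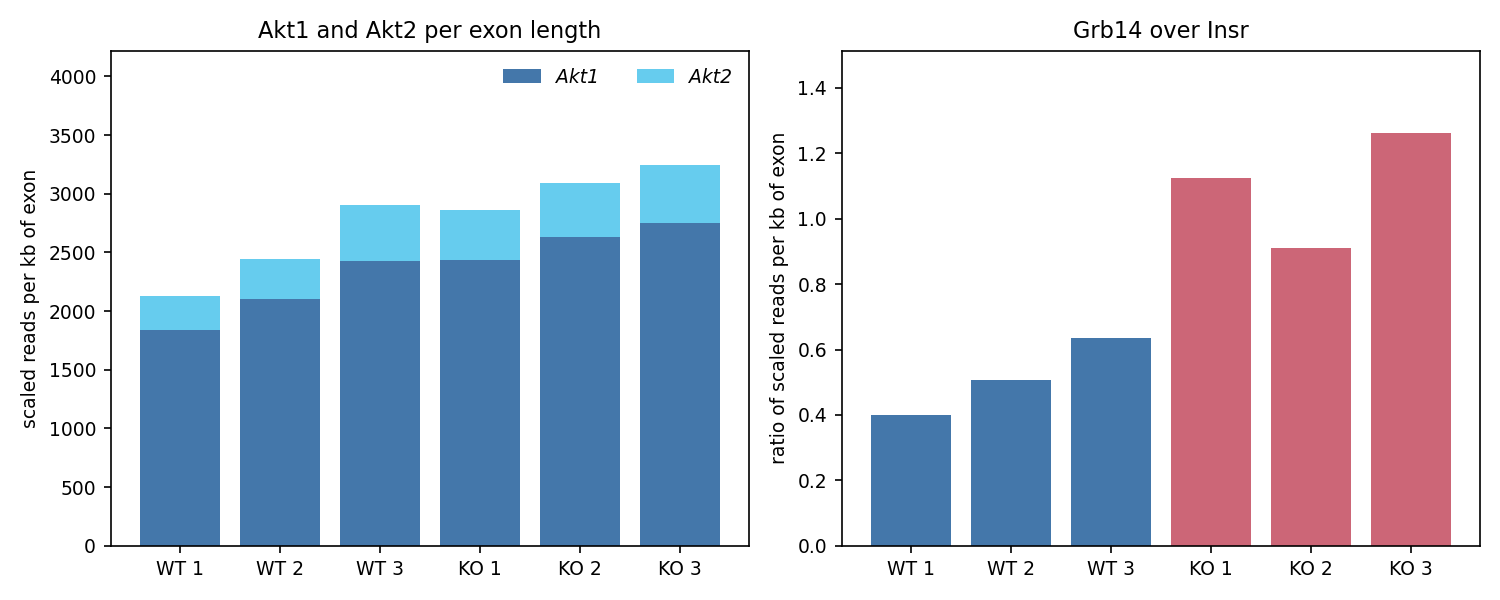
Left, scaled reads per kilobase of exon of Akt1 and Akt2 stacked for each library; right, the ratio of Grb14 to Insr per kilobase of exon in each library (WT blue, KO red). The share of Akt1 in the sum lies between 83.5% and 86.1%, and the Grb14 to Insr ratio is at most 0.63 in WT and at least 0.91 in KO.

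Foxo1, whose protein is held inactive by AKT (ENSMUSG00000044167; chromosome 3, 52268336 to 52353221, plus strand), stood at 871, 759 and 435 scaled reads in the WT libraries and 849, 889 and 981 in the KO libraries. WT replicate 3 stood well below the rest, and the remaining 5 libraries lay close together. The group values of Foxo1 were 688 ± 226 for WT and 906 ± 67.8 for KO (SD, n = 3 each). Its limma log2 difference was 0.45 (SE 0.29, 95% interval -0.24 to 1.15), and without WT replicate 3 it was 0.15.

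Read together, 6 of the 8 genes had a difference above 0, against 50.4% of all genes tested, and their median was 0.32 against 0.0040. None passed an adjusted p of 0.05 in limma, nor did any other gene (0.0% of 12363). Without adjustment, 2 of the 8 genes had a limma p under 0.05 (3.62% of all genes), both higher in KO (Grb14 and Irs1; 1.46% of all genes) and 0 lower (2.15%). limma-voom likewise gave 2 of 8, against 3.51% of all genes. The count was 1, Grb14 alone, without WT replicate 2 (312 of 12363 genes in all) or without KO replicate 1 (466 genes). It was 2 with Akt2 in place of Irs1 without WT replicate 3 (692 genes in all). Without KO replicate 3 it was also 2, with Pik3r1 in place of Irs1 (546 genes in all). With library quality weights it was 3 (Akt2, Grb14 and Irs1), with or without the replicate block. With the replicate block alone it was 2 (Grb14 and Irs1). Of all 12363 genes, 2284 had such a p with the weights, 1735 with the weights and the block and 917 with the block alone. With genotype alone 447 did. Groups did not overlap for 3 of 8 genes, all higher in KO (Grb14, Irs1 and Akt1), against 3.91% of all genes higher and 4.51% lower. KO exceeded the same-numbered WT library in all 3 pairs for 4 of 8 genes (these 3 and Akt2), against 15.7% of all genes, and was lower in all 3 for 0 of 8, against 15.0%. With 8 genes chosen when earlier results were known, these counts describe the genes and test nothing further.

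**Figure D3:**
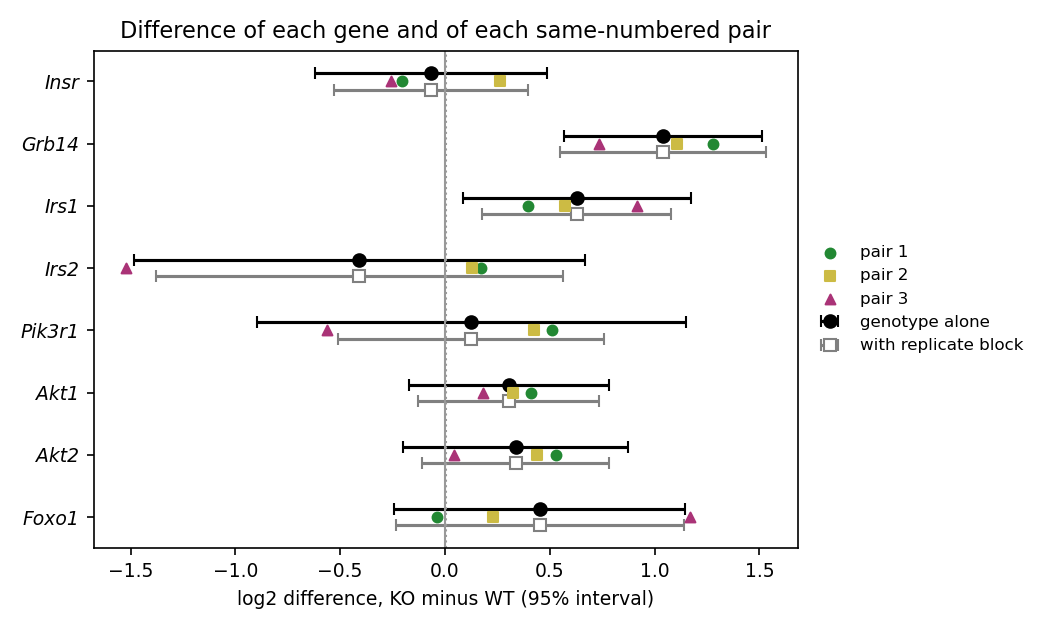
Log2 differences, KO minus WT, of the 8 genes with 95% intervals from limma with genotype alone (filled circles) and with the replicate block (open squares), and the difference of each same-numbered pair (coloured symbols). The intervals of Grb14 and Irs1 lie above 0, and in Irs2, Pik3r1 and Foxo1 pair 3 lies apart from pairs 1 and 2.

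By pair, Grb14 differed by 1.28, 1.11 and 0.74 on the log2 scale in replicates 1, 2 and 3, and Irs1 by 0.40, 0.57 and 0.92. Pair 3 departed from the others in Irs2 (0.17, 0.13 and -1.52), Pik3r1 (0.51, 0.42 and -0.56) and Foxo1 (-0.037, 0.23 and 1.17). For Akt1 the pair differences were 0.41, 0.33 and 0.18, and for Akt2 0.53, 0.44 and 0.043, so the third was the smallest for both kinases. The smooth muscle marker sum, which rests on Acta2 and Tagln, was highest in replicate 3 of both groups. The epithelial and mesothelial sum was lowest in KO replicate 3. The fibroblast sum fell from replicate 1 to 3 in WT (65470, 32402 and 18120) and in KO (58537, 42159 and 21035). The adipocyte sum was lowest in replicate 3 of WT (142) and of KO (274). Whether these bear on pair 3 was not tested.

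Levels could be ordered per kilobase of exon (GENCODE M21 exon union). Akt1 was highest, with a median of 2429 scaled reads per kilobase over the 6 libraries, and its range did not meet that of any other member. Below it came Akt2 (444), Pik3r1 (423), Irs1 (293), Irs2 (194), Insr (153), Grb14 (116) and Foxo1 (99.3). Each neighbouring pair after Akt1 had overlapping ranges, and Akt2 exceeded Pik3r1 in 2 of 6 libraries, so that part of the order is loose. As a ratio of group means on this scale, Grb14 differed most of the 8 genes, from 78.3 ± 8.66 in WT, at the level of Foxo1 (79.4 ± 26.1), to 161 ± 14.5 in KO, at the level of Irs2 (168 ± 90.4) and Insr (151 ± 36.3; SD, n = 3 each).

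The rest of the pathway was read from 10 lists of genes grouped by role, of which 135 genes in all had values. Of these 135, 71 had a difference above 0 and the median was 0.015. Without adjustment, 0 higher and 4 lower genes had a limma p under 0.05, against 1.46% and 2.15% of all genes, and 0 passed an adjusted p of 0.05. Receptors and their partners split evenly, 5 above and 5 below 0, with a median of -0.020. Among them Igf1r, the receptor most like Insr, differed by 0.15 (SE 0.35), the membrane scaffold Cav1 by 0.30 (SE 0.43) and Ptpn1, a phosphatase that dephosphorylates the insulin receptor, by 0.25 (SE 0.30).

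Of 19 adaptors and docking proteins 11 were above 0, with a median of 0.019. Grb2, the adaptor that has been described as binding LRRC8A, had 3638, 3579 and 3806 scaled reads in the WT libraries and 2957, 2585 and 3865 in the KO libraries. Its groups overlapped through KO replicate 3 (limma log2 difference -0.25, SE 0.21). Gab1 and Shc1, which link receptors to phosphoinositide 3-kinase and to RAS, had 0.27 (SE 0.23) and 0.15 (SE 0.25). Dok1, a docking protein that restrains receptor signalling, was lower in every KO library than in any WT library, at -0.57 (SE 0.20, unadjusted p = 0.0255 in limma, adjusted p = 0.999), where 4.51% of all genes had such lower values.

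Phosphoinositide 3-kinase subunits other than Pik3r1 had 5 above and 5 below 0, with a median of -0.028. The catalytic subunits Pik3ca and Pik3cb had 0.066 (SE 0.19) and -0.33 (SE 0.35), the other regulatory subunits Pik3r2 and Pik3r3 0.14 (SE 0.21) and 0.42 (SE 0.32), and the inhibitor Pik3ip1 0.32 (SE 0.32). Of 9 phosphatases that oppose the pathway 7 were above 0, with a median of 0.10, among them the inositol phosphatase gene Inppl1 at 0.10 (SE 0.31). Phlpp1, named after its values were seen, had 0.47 (SE 0.23, unadjusted p = 0.0782 in limma, adjusted p = 0.999). All its KO libraries were above all WT libraries, as for 3.91% of all genes. Of 13 genes of AKT and its activating kinases 7 were above 0, with a median of 0.054. Pdpk1, which phosphorylates the activation loop of AKT, had -0.020 (SE 0.18), Mtor -0.33 (SE 0.22) and Rictor -0.067 (SE 0.36). Trib3, a pseudokinase that binds AKT, was lower in KO in all 3 pairs, at -1.17 (SE 0.51, unadjusted p = 0.0552 in limma, adjusted p = 0.999).

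Targets of AKT and the mTORC1 complex had 11 of 20 genes above 0 and a median of 0.042. Tsc2 had -0.079 (SE 0.18), Gsk3b 0.059 (SE 0.28) and Tbc1d4, which controls glucose transporter traffic, 0.69 (SE 0.44). Slc2a1, the basal glucose transporter, had 3747, 3287 and 2690 scaled reads in the WT libraries and 1071, 1437 and 1722 in the KO libraries. All KO libraries of Slc2a1 were lower than all WT libraries, as for 4.51% of all genes. Its limma log2 difference was -1.21 (SE 0.24, adjusted p = 0.996). In the authors' deposited table its log2 ratio of -1.20 had an FDR of 0.0112, where 0.525% of genes passed 0.05 in either direction. With library quality weights in limma Slc2a1 passed at an adjusted p of 0.045, as did 0.243% of genes, within a range over the alternatives from 0.045 to 1.

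Of 24 FOXO target genes 16 were below 0, with a median of -0.088. Such genes are induced by nuclear FOXO proteins. In all 3 pairs, 5 of the 24 were higher in KO and 5 lower, against 15.7% and 15.0% of all genes. Groups did not overlap for 2 genes higher in KO and 0 lower, against 3.91% and 4.51% of all genes. Gadd45a, a growth arrest gene, was lower in KO in all 3 pairs, at -1.04 (SE 0.42, unadjusted p = 0.0411 in limma, adjusted p = 0.999). Trib1, a pseudokinase gene picked after its values were seen, had -0.84 (SE 0.41). Txnip, which restrains glucose uptake, had -0.64 (SE 0.37), Sesn3 -0.56 (SE 0.38), Klf15 -0.63 (SE 0.32) and Fbxo32 -0.23 (SE 0.43). Sesn1, Ccng2 and Bcl2l11 had 0.55 (SE 0.28), 0.44 (SE 0.23) and 0.55 (SE 0.29), each higher in KO in all 3 pairs; these 3 were picked after their values were seen. FOXO factors and partners had 6 of 10 above 0 and a median of 0.034, with Foxo3 at 0.29 (SE 0.28) and Foxo4 at 0.20 (SE 0.28).

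**Figure D4:**
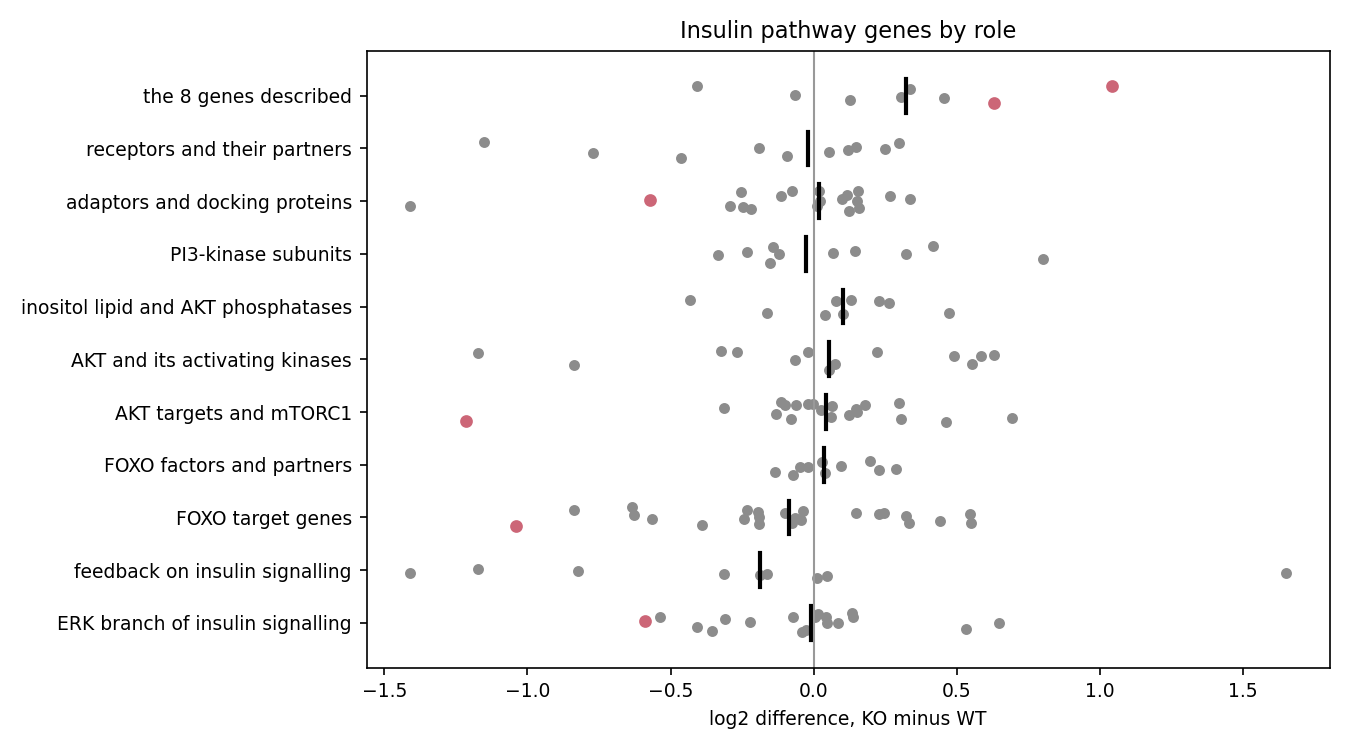
Log2 differences, KO minus WT, of the 8 genes and of the genes of 10 lists by role; each point is a gene, red where the unadjusted limma p is under 0.05, and the black bar is the median. The medians of the 10 lists lie between -0.19 and 0.10, with single genes up to 1.65 and down to -1.41.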

How the data were processed

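The deposited per-library values are a scaled signal, not whole counts: reads per gene that the authors put on a common depth. Depth was estimated from the step between low values, and whole reads were not recovered, since in each library only 82.5% to 92.4% of values of at most 50 reads were whole within 0.05. Tools named per the submitters' processing notes, with no role given, are DESeq2, Partek and STAR, with mm39 and GRCm39 as builds. The deposited coordinates are those of GRCm38: 12341 of 12385 genes start as in GENCODE M21, and the end was placed 1 base before the deposited stop. The authors' deposited table gives p-values and FDR, log2 ratios of KO over WT and group mean signal.

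limma 3.58.1 (R 4.3.3) was fitted on log2(value + 2) with genotype alone, with trend and robust priors, to the 12363 genes that reached 10 scaled reads in 3 or more libraries. p-values are two-sided, with Benjamini-Hochberg adjustment over all genes tested. Deviations of same-numbered libraries from their group means correlated across genes at 0.43, 0.15 and 0.39, all above 0.1. The numbers, which come from the sample titles, were therefore taken as pairing for the pair differences and the replicate block. The main fit, with genotype alone, left this pairing out. The fit and its alternatives (scaling, filter, pseudocount, table, limma-voom, priors, weights, replicate block, each library left out) are given below. The fit was tested on simulated data. The genes and lists were chosen with earlier results of these data known. Named genes were the 8 genes, pathway genes set by role (some not reported here), up to 4 genes per list with the smallest unadjusted p under 0.05, the 2 highest markers per list, and the 3 genes most like Grb14 and Insr; Sesn1, Ccng2, Bcl2l11, Trib1, Socs2, the 4 further smooth muscle markers, Krt18 and Cdh1 were named after their values were seen.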

Additional observations from a re-analysis of the deposited data

How the results depend on the processing

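Of the 8 genes, Akt1, Akt2, Foxo1 and Irs1 kept direction and call under all 19 alternatives. With library quality weights Grb14 passed (1.08), so 1 of 8 genes passed, and Insr turned to 0.094 (0.079 with weights and the replicate block). The replicate block alone changed no call: 0 of 8 genes passed, with Grb14 at an adjusted p of 0.347 in limma. Leaving out each library gave ranges of -0.24 to 0.12 for Insr, -0.78 to 0.12 for Irs2 and -0.21 to 0.62 for Pik3r1. It gave 1 to 2 of the 8 genes at an unadjusted p under 0.05, against 312 to 692 of 12363 genes, an alternative chosen after seeing the data. With the weights, list medians were -0.12 for receptors, -0.093 for phosphoinositide 3-kinase subunits, -0.053 for AKT targets, -0.25 for the ERK branch, 0.21 for phosphatases and -0.36 for feedback genes. Total scaling gave 0.0033 for phosphoinositide 3-kinase subunits, and weights with the replicate block -0.17 for FOXO targets. Without each library the medians ran from -0.16 to 0.043 for adaptors, -0.043 to 0.070 for phosphoinositide 3-kinase subunits, -0.080 to 0.11 for AKT and its kinases, -0.084 to 0.055 for FOXO factors, -0.14 to 0.057 for FOXO targets, -0.0011 to 0.16 for phosphatases, -0.040 to 0.086 for AKT targets, -0.14 to -0.016 for the ERK branch and -0.29 to -0.16 for feedback genes. The cause of these shifts was not tested. The median residual SD between libraries was 0.36 (log2), or 0.26 with the replicate block.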

Other observations

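Feedback genes had 6 of 9 members below 0 and a median log2 difference of -0.19. Socs3, a cytokine-induced inhibitor that also binds the insulin receptor, had 759, 540 and 1797 scaled reads in the WT libraries and 510, 446 and 580 in the KO libraries, lower in KO in each pair (limma log2 difference -0.82, SE 0.44). Socs2, chosen after its values were seen, went the other way at 1.65 (SE 0.73), led by KO replicate 1 at 5865. The ERK branch, which insulin reaches through GRB2 and SOS, had 9 of 18 genes above 0 and a median of -0.010. Its kinase Braf was lower in all KO libraries than in any WT library, as for 4.51% of all genes. The difference was -0.59 (SE 0.23, unadjusted p = 0.0361 in limma, adjusted p = 0.999).

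Among 12185 other genes with a mean of at least 100 scaled reads, the log2 profile of Grb14 over the 6 libraries was most like those of Swap70 (Pearson r 0.989), Zfp764 (0.986) and Pgap2 (0.978), each higher in every KO library. Swap70 had 1344, 1349 and 1391 in the WT libraries and 1950, 1931 and 1874 in the KO libraries. The profile of Insr was most like those of Pfkfb2 (0.995), Otud4 (0.994) and Zfp953 (0.990), which shared its peak in KO replicate 2 and its low in KO replicate 3. All these genes were picked for likeness to Grb14 or Insr over the same 6 libraries, and Grb14 was itself higher in every KO library. The higher KO values, and the peak and low shared with Insr, thus follow largely from the selection and are not separate findings. Swap70, Zfp764 and Pgap2 each had an adjusted p of 0.999 in limma. The likenesses are descriptions over libraries of both groups.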
